A study of Mus musculus with 9 samples.

Results

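The cytosolic ribosomal protein genes, which encode the protein parts of the ribosome that works in the cytosol, were followed in bulk messenger RNA sequencing of lumbar dorsal root ganglia. Members were the protein-coding mouse genes whose symbol is Rpl or Rps with a number, together with Rpsa, Rplp0, Rplp1 and Rplp2. Rps6k kinases, pseudogenes and predicted genes were left out. This gave 84 genes of the 55536 gene identifiers in the count tables, 52 for the large subunit and 32 for the small one. Of the 84, 77 encode the core proteins and 7 are paralogs (Rpl22l1, Rps27l, Rpl36al, Rpl7l1, Rpl3l, Rpl10l and Rpl39l). The rule itself uses symbols and gene types and no measured value.

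Dorsal root ganglia hold the cell bodies of sensory neurons with their glia. Both groups were adult C57Bl6 mice sampled 1 month after tamoxifen, the drug that starts an inducible deletion. The icKO group (5 libraries) carried an inducible conditional knock-out of Prdm12, a gene for a zinc finger regulator of pain-sensing neurons, and the control group (4 libraries) had a wild type genotype. The Cre line, the deleted part of Prdm12, any pooling of animals and whether each library is a separate animal are not stated in the sources used here. The p-values below therefore rest on the spread among libraries, part of which may be technical. A library number below is its replicate number in the labels, which do not say that equal numbers in both groups pair libraries.

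Each ribosome carries 1 copy of nearly every ribosomal protein, so cells make these proteins in matched amounts. Their mRNAs are known for a run of C and T at the very 5′ end, the terminal oligopyrimidine (TOP) tract, through which the kinase mTOR and the RNA-binding protein LARP1 tune translation. In sensory neurons, ribosomes lie in the cell body and also along the axon, where some ribosomal protein mRNAs are translated. Read counts measure the amount of these mRNAs and not how well they are translated.

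The sequence around transcription starts is shown for members described below, because a C and T run at the start is what TOP mRNAs are known for. Starts came from RefSeq on GRCm38.p6, which held 64 of the 84 members with 76 starts. A run of at least 8 C or T bases within 20 bases either side of the start lay at 31 of the 76 member starts (40.8%), against 16.0% of the 32851 starts of all genes. Each line gives 30 bases before and 20 bases after the start, read 5′ to 3′ on the gene's strand, with the longest C and T run of that 20-base span on either side in capitals. The first 7 windows hold a run of 8 bases or more and the last 4 do not. In Rpl4, Rpl5 and Rps27l the marked run ends before the RefSeq start, so it lies outside the mRNA as annotated. Whether a run is a TOP tract, or is missing, therefore depends on where RefSeq places the start. Rps27l has another RefSeq start, not shown, whose longest run is 4 bases.
Rpl4, chr9:64173357-64173406, plus strand: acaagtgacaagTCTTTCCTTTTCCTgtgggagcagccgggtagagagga
Rplp2, chr7:141447621-141447670, plus strand: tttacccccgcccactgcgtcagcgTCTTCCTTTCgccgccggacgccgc
Rpl5, chr5:107900498-107900547, plus strand: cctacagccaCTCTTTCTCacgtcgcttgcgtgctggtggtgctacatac
Rps10, chr17:27635225-27635274, minus strand: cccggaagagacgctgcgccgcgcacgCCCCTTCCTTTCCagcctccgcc
Rps27, chr3:90213629-90213678, minus strand: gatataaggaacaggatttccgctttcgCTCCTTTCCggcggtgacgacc
Rpl22l1, chr3:28805478-28805527, plus strand: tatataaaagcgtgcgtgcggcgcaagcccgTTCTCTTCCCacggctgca
Rps27l, chr9:66946056-66946105, plus strand: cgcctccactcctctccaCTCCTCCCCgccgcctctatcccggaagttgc
Rpl24, chr16:55966245-55966294, plus strand: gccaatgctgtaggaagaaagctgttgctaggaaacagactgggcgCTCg
Rplp0, chr5:115559437-115559486, plus strand: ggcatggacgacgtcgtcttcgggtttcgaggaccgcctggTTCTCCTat
Rpsa, chr9:120127736-120127785, plus strand: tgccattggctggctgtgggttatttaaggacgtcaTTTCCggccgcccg
Rps4x, chrX:102189372-102189421, minus strand: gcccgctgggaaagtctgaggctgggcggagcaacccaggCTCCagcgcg

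Short motifs bound by known activators were counted on both strands over 250 bases before to 50 bases after each start. CCGGAAG or its reverse complement CTTCCGG, the core bound by GABP, lay at 35.5% of member starts and at 8.9% of all starts. AAGATGGC or GCCATCTT, the core bound by YY1, lay at 10.5% of member starts and at 2.7% of all starts, and GGGCGG or CCGCCC, the box bound by SP1, at 60.5% of member starts and at 35.7% of all starts. TATAAA, read on the gene's strand only, lay at 7.9% of member starts and 8.3% of all starts. A match is a description of letters and shows no binding.

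The libraries held 19607740 to 29481589 counts. Prdm12 had 22.3 to 26.2 CPM (counts scaled to a common library total with TMM factors) in icKO libraries and 116 to 163 CPM in control libraries, so the labels and the targeted gene went together (log2 fold change -2.48, with an adjusted p of 2.511e-08 in edgeR's quasi-likelihood test; exact two-sided permutation p 0.00794 over 126 splits, the smallest they can give). Neuron markers summed to 14100 to 17360 CPM in icKO and 15090 to 17800 CPM in control libraries, and satellite glia markers to 4041 to 4739 and 3773 to 4967 CPM, so the labelled tissue carried its defining markers. Among 17258 tested genes, 147 passed an adjusted p of 0.05 (0.852%), 82 of them higher (0.475%) and 65 lower (0.377%) in icKO. Such bulk values cannot tell fewer cells of a type from less RNA per cell.

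No ribosomal protein gene passed the test between icKO and control ganglia: 0 of 81 tested members were called by edgeR's quasi-likelihood test, beside 0.852% of all genes, and 0 by DESeq2. At an unadjusted p of 0.05, edgeR had 6 members higher and 1 lower in icKO, beside 4.85% and 6.26% of all genes (11.1% in either direction). DESeq2 had 12 of the 81 higher and 0 lower, beside 2.4% and 2.92% of the 36684 genes to which it gave a p. That set had no count filter and takes in low-count genes left out of edgeR's 17258. The shares of all genes in DESeq2 and edgeR are therefore over different sets. The smallest adjusted p among members was 0.332, for Rps20. Most fold changes were small and of 1 sign, with 71 of 81 members above 0 (87.7%), beside 49.8% of all genes. The median log2 fold change was 0.16 over the members, with quartiles of 0.09 and 0.21, beside -0.00076 over all genes. Members rise and fall together across libraries, so these shares count 81 genes but not 81 separate observations, and no test was made of them. In no member did the groups separate without overlap, beside 4.5% of all genes in either direction and 2.16% higher in icKO.

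Summed over its 52 genes, the large subunit reached 2452, 2289, 2245, 2786 and 2356 CPM in icKO libraries 1 to 5, against 1966, 2527, 2073 and 2281 CPM in control libraries 1 to 4. Library icKO 4 was highest and control 1 lowest, while control 2 lay above 4 of the 5 icKO libraries, so the groups overlapped. The means were 2426 ± 216 CPM in icKO (SD, n = 5) and 2212 ± 248 CPM in control (SD, n = 4), a ratio of 1.10. The 32 small subunit genes summed to 2118, 1959, 1924, 2584 and 2046 CPM in icKO libraries, against 1545, 2212, 1714 and 1994 CPM in control libraries. The same pair of libraries stood at the ends, and the means of 2126 ± 267 and 1866 ± 296 CPM (SD, n = 5 and 4) gave a ratio of 1.14. Both differences were smaller than the SD of either group. Together the members took 0.418% to 0.547% of all counts in icKO libraries and 0.342% to 0.475% in control libraries.

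The balance of the subunits, as the ratio of their summed CPM, ran from 1.078 to 1.273 over the libraries. Large over small was 1.158, 1.168, 1.167, 1.078 and 1.152 in icKO libraries, against 1.273, 1.142, 1.21 and 1.144 in control libraries. The ratio was lowest in icKO 4 and highest in control 1, the reverse of their order in summed CPM. The means were 1.145 ± 0.0377 in icKO and 1.192 ± 0.0621 in control (SD, n = 5 and 4). Their difference of -0.0477 was larger than the SD of the icKO libraries and smaller than that of the control libraries.

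**Figure D1:**
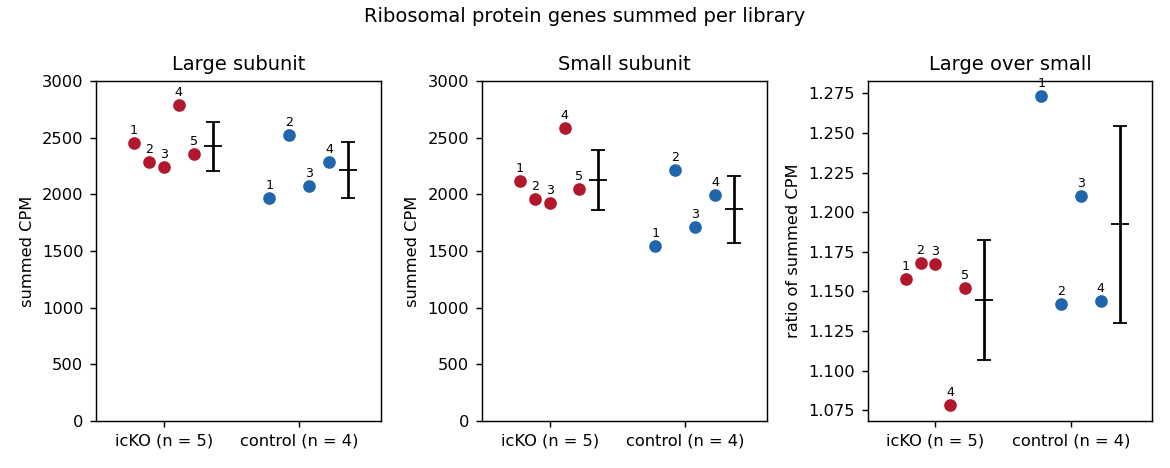
Summed CPM of large and small subunit genes and their ratio (vertical axes) in icKO and control libraries (horizontal axis). Numbered points are libraries and the bars give mean and SD. Library icKO 4 is highest and control 1 lowest in both sums, and the groups overlap in all 3 panels.

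Single libraries set much of the spread. Of the 81 tested members, 54 were highest in icKO 4 (66.7%), beside 15.9% of all genes, and 46 were lowest in control 1 (56.8%), beside 13.8% of all genes. Control 3 held the lowest value of 19 members and control 4 that of 10, while control 2 held the highest value of 10. Without control 1 and icKO 4, a choice made after the values were seen, 57 of 81 members lay above 0 (70.4%) and the median log2 fold change was 0.03, with 0 members called. Without control 1 alone the median was 0.09, without icKO 4 it was 0.09 and without control 2 it was 0.24. The count of members higher at an unadjusted p of 0.05 was 0, 0 and 37 in these fits, beside 3.83%, 3.92% and 6.94% of all genes, and the smallest adjusted p without control 2 was 0.0589 in edgeR's quasi-likelihood fit.

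Markers of some other cell types stood at their ends in the same libraries, and those of others did not. All 7 fibroblast markers were highest in icKO 4, where they summed to 2133 CPM, and their sum was lowest in control 1, at 675 CPM. Over the groups their sum ranged from 863 to 2133 CPM in icKO and from 675 to 1440 CPM in control. The sum of 7 endothelial markers was highest in icKO 4, at 90.3 CPM, and lowest in control 1, at 58.4 CPM. Singly, 4 of them were highest in icKO 4 (57.1%) and 2 lowest in control 1 (28.6%), beside 15.9% and 13.8% of all genes. The erythroid sum was 48.3 CPM in icKO 4, close to 47.5 CPM in icKO 5, and lowest in control 1, at 10.9 CPM. Of the 5 erythroid markers, 1 was highest in icKO 4 (20%) and 3 were lowest in control 1 (60%). Neuron markers were lowest in icKO 4, with 14100 CPM, and highest in control 1, with 17800 CPM. Macrophage markers ranged from 108 to 170 CPM in icKO and from 82.3 to 195 CPM in control, with control 1 lowest. Schwann cell markers were low in both icKO 4 (2995 CPM) and control 1 (2896 CPM), and adipocyte markers were highest in control 1, at 30.1 CPM. Muscle and satellite glia markers were highest in control 2. B cell and lymphocyte markers were highest in control 3 and lowest in control 1. Spinal cord markers summed to 100.3 to 144 CPM in icKO and 147 to 228 CPM in control, with no overlap. Of the 5 spinal cord markers tested, 1 separated the groups by itself, lower in icKO (20%), beside 4.5% of all genes in either direction. No marker list had a gene at 0 in every library. The part of these markers in the levels of ribosomal protein genes was not tested.

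Counts of 4 Y-linked genes split the libraries into 2 classes that crossed the groups. Their sum was 98.1 to 164.6 CPM in icKO 1, icKO 2, control 1 and control 3. It was 0.1045 to 0.67 CPM in icKO 3, icKO 5, control 2 and control 4. Library icKO 4, at 3.58 CPM, fell in the class with low counts. In the class with high counts, the summed CPM of all members was 4409 in icKO and 3649 in control on average, a ratio of 1.21. The controls of that class, control 1 at 3511 CPM and control 3 at 3787 CPM, were the 2 lowest of the 9 libraries. In the class with low counts it was 4647 in icKO and 4507 in control, a ratio of 1.03. Fitted within the high class, edgeR gave a median log2 fold change of 0.27, with 78 of 81 members above 0 (96.3%, beside 51.4% of all genes), 42 higher at an unadjusted p of 0.05 (beside 4.51% of all genes) and 0 called. Within the low class the median was 0.04, with 52 members above 0 (64.2%, beside 49.2% of all genes), 0 higher at that p (beside 3.02%) and 0 called. A test of the difference between classes in edgeR called 0 of 17258 genes, and 5 members passed an unadjusted p of 0.05 (6.17%), beside 1.63% of all genes. The log2 fold change in the high class minus that in the low class had a median of 0.25 over members, beside -0.0063 over all genes. With 2 or 3 libraries per group in each class, the test cannot decide whether the classes differ in their icKO to control difference.

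**Figure D2:**
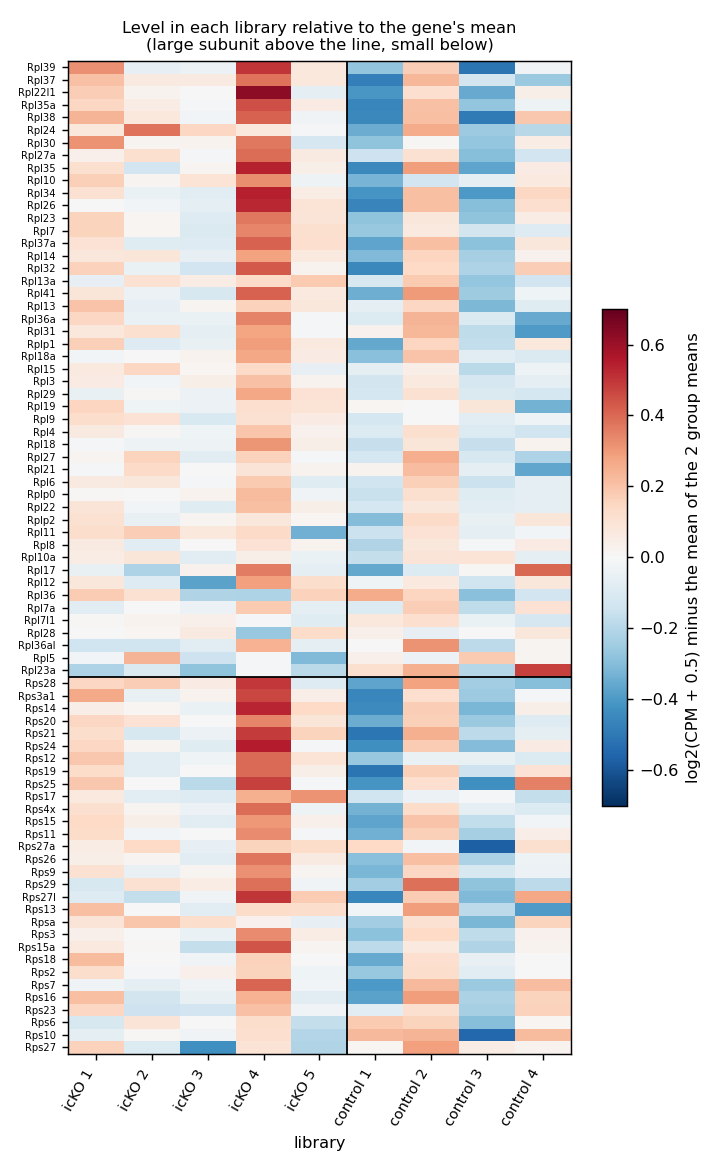
Level of each tested member (79 of the 81 genes down the page, large subunit above the line) in each library (columns, icKO left of control), as log2(CPM + 0.5) minus the mean of the 2 group means. Red is higher and blue lower; icKO 4 is red and control 1 blue over most members of both subunits.

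Within the large subunit, 49 genes were tested and 42 had a log2 fold change above 0, with a median of 0.13 and 0 called. The stalk binds elongation factors and is built from Rplp0, Rplp1 and Rplp2, with Rpl12 at its base. Its scaffold Rplp0 had 155, 154, 157, 180 and 152 CPM in icKO libraries, against 138, 166, 145 and 148 CPM in control libraries. The value of icKO 4 stood above all others, and the rest of the icKO libraries lay among the controls, with a log2 fold change of 0.09 (95% interval -0.06 to 0.24). Rplp1 had 206, 172, 177, 225 and 192 CPM in icKO, against 143, 203, 163 and 193 CPM in control, and its log2 fold change was 0.15 (interval -0.08 to 0.38). Rplp2 differed least of the 3, with 0.06 (interval -0.11 to 0.23). All 4 stalk genes were above 0, with a median of 0.08.

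Rpl5 and Rpl11 carry the 5S ribosomal RNA, and their free complex is known to hold the p53 inhibitor Mdm2. Rpl5 had 3.20, 3.91, 2.89, 3.21 and 2.53 CPM in icKO libraries, against 3.34, 3.14, 3.75 and 3.30 CPM in control libraries. All controls lay within the icKO range, with a log2 fold change of -0.11 (interval -0.41 to 0.20), and that of Rpl11 was 0.08 (interval -0.20 to 0.36). Rpl3 and Rpl10, which reach toward the peptidyl transferase centre, had log2 fold changes of 0.12 (interval -0.02 to 0.27) and 0.25 (interval -0.0057 to 0.51). Among 8 genes of the polypeptide exit tunnel and its rim, 7 lay above 0, with a median of 0.14. Rpl4, whose long loop lines that tunnel, had 399, 383, 374, 437 and 389.9 CPM in icKO, against 356, 413, 357 and 347 CPM in control. Control 2 again lay among the higher libraries and the log2 fold change was 0.11 (interval -0.04 to 0.25).

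Rpl39, a small X-linked tunnel protein, had the second highest fold change in this subunit's core. It had 25.4, 19.4, 19.7, 28.8 and 21.4 CPM in icKO libraries, against 16.6, 22.9, 14.1 and 19.9 CPM in control libraries. Only icKO 1 and icKO 4 exceeded every control, and its log2 fold change was 0.32 (interval -0.00059 to 0.65, adjusted p 0.451 in edgeR's quasi-likelihood fit). Rpl24, which forms part of a bridge to the small subunit, had 0.908, 1.24, 0.975, 0.905 and 0.8292 CPM in icKO libraries, against 0.550, 1.10, 0.620 and 0.670 CPM in control libraries. Control 2 lay above 4 of the 5 icKO libraries and the log2 fold change of 0.40 had an interval of -0.12 to 0.92. These values rest on 13 to 32 counts per library.

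Rpl23a, at the tunnel exit where the signal recognition particle docks, had the lowest fold change of all members. It had 0.572, 0.659, 0.522, 0.740 and 0.592 CPM in icKO libraries, against 0.843, 0.980, 0.583 and 1.24 CPM in control libraries. Control 3 lay within the icKO range and the other controls above it, with a log2 fold change of -0.54 (interval -1.06 to -0.02, adjusted p 0.427 in edgeR's quasi-likelihood fit). Each library held 15 to 24 counts of it, 62.3% of its exon length overlaps 2 other genes, and 85.7% of its transcript's 50-base windows recur in other genes, so its counts are uncertain. Rpl24 shares 81.7% of its windows and overlaps another gene over 47.0% of its exon length, and is as uncertain.

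Within the small subunit, 32 genes were tested and 29 had a log2 fold change above 0, with a median of 0.16 and 0 called. Rps2, Rps3, Rps15 and Rps23 line the mRNA entry and decoding side. All 4 lay above 0, with a median of 0.13. Rps15, the tail of which nears the decoding site, had 161, 150.5, 138.5, 181 and 149.6 CPM in icKO libraries, against 113, 168, 130 and 144 CPM in control libraries. Its log2 fold change was 0.17 (interval -0.06 to 0.40), with control 2 above 4 icKO libraries. At the mRNA exit, Rps26, Rps28, Rpsa and Rps14 were all above 0, with a median of 0.22. Rps28 had 8.18, 8.33, 7.66, 10.5 and 6.87 CPM in icKO libraries, against 5.57, 9.02, 6.12 and 5.87 CPM in control libraries. Control 2 lay within the icKO range and the other 3 controls below it, and the log2 fold change was 0.32 (interval -0.03 to 0.67). Rpsa, also a laminin receptor, had a log2 fold change of 0.16 (interval -0.13 to 0.46).

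Rps3a1, which sits beside the mRNA exit and binds initiation factor 3, had 43.4, 34.7, 36.6, 49.8 and 37.1 CPM in icKO libraries, against 26.1, 39.0, 30.1 and 35.7 CPM in control libraries. Control 1 and control 3 lay below every icKO library. Its log2 fold change was 0.30 (interval 0.03 to 0.58, adjusted p 0.386 in edgeR's quasi-likelihood fit). Rps20 had the smallest adjusted p of the members and was picked after its values were seen. It had 99.2, 96.3, 89.8, 114 and 95.4 CPM in icKO libraries, against 70.5, 101, 74.8 and 84.3 CPM in control libraries. Only control 2 lay within the icKO range, and the log2 fold change was 0.26 (interval 0.04 to 0.48). Rpl27a, Rpl37, Rpl7 and Rpl30, all of the large subunit, were the other members higher at an unadjusted p of 0.05, with log2 fold changes of 0.24, 0.30, 0.21 and 0.26.

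Rps27 and Rps10 had the lowest fold changes of the small subunit. Rps27, a zinc finger protein, had 2.09, 1.67, 1.22, 1.97 and 1.5 CPM in icKO libraries, against 1.83, 2.33, 1.90 and 1.86 CPM in control libraries, with a log2 fold change of -0.23 (interval -0.62 to 0.16). Libraries icKO 1 and icKO 4 lay within the control range and the other icKO libraries below it. Rps10, which lies near the mRNA entry, had 2.19, 2.32, 2.26, 2.55 and 1.94 CPM in icKO libraries, against 2.79, 2.82, 1.42 and 2.78 CPM in control libraries. Control 3 alone lay below the icKO libraries and the other 3 controls lay above them, with a log2 fold change of -0.12 (interval -0.55 to 0.31). Of the 18 members in which human variants cause Diamond-Blackfan anaemia, 15 lay above 0, with a median of 0.16. The 4 X-linked members (Rps4x, Rpl10, Rpl36a and Rpl39) were all above 0, with a median of 0.22, and that of Rps4x was 0.18 (interval -0.04 to 0.41).

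**Figure D3:**
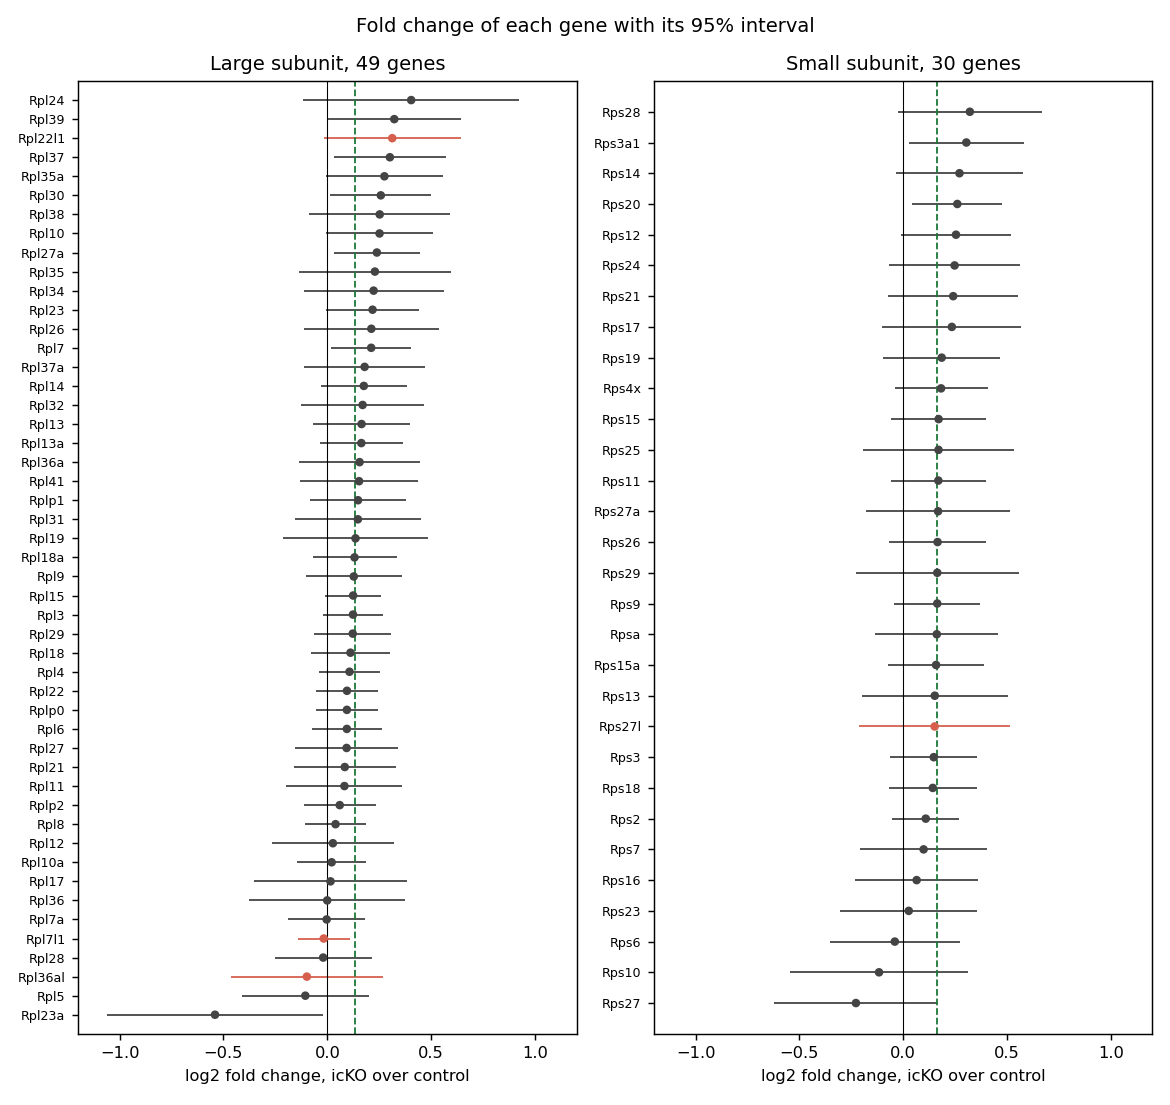
Log2 fold change, icKO over control (horizontal axis), of 49 large and 30 of the 32 small subunit genes tested, with 95% intervals as lines. Paralogs are in red and the dashed line is the median of all tested genes of each subunit; most points lie right of 0, and most intervals span 0.

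Fold changes of the 4 tested paralogs had both signs. Rpl22l1, the paralog of Rpl22, had 34.1, 30.8, 30.2, 46.9 and 28.8 CPM in icKO libraries, against 22.6, 32.9, 23.5 and 31.1 CPM in control libraries, with a log2 fold change of 0.31 (interval -0.02 to 0.64). Only icKO 1 and icKO 4 exceeded every control. In CPM not scaled for length, Rpl22l1 over Rpl22 was 0.244 ± 0.0347 in icKO and 0.210 ± 0.0306 in control (SD, n = 5 and 4). The difference of 0.0333 lay near the SD of each group. Rps27l, a p53-induced paralog of Rps27, averaged 26.2 ± 5.25 CPM over icKO libraries and 23.7 ± 5.86 CPM over control libraries, a difference below either SD (n = 5 and 4). Its CPM, not scaled for length, was 15.95 ± 3.74 times that of Rps27 in icKO and 11.97 ± 2.81 times in control. The difference of 3.98 was larger than either SD. Rps27 had 35 to 62 counts per library. Of its transcript's 50-base windows 98.6% recur in other genes, against 22.4% for Rps27l, so the size of this ratio is uncertain. Rpl36al had a log2 fold change of -0.10 (interval -0.47 to 0.27), and Rpl7l1, the paralog of Rpl7, one of -0.02 (interval -0.14 to 0.11). The median log2 fold change of the 4 paralogs was 0.07. In CPM, Rpl36al over Rpl36a was 0.229 ± 0.0172 in icKO and 0.2755 ± 0.0418 in control (SD, n = 5 and 4). Rpl7l1 over Rpl7 was 0.406 ± 0.0537 and 0.4725 ± 0.0537. These differences, -0.0467 and -0.0665, were larger than either SD. The groups overlapped in each of these paralog ratios, and none was tested.

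The other 3 paralogs were too low to test. Rpl3l, a paralog of striated muscle, had 3 to 17 counts per library. It was highest in control 2, where it reached 0.694 CPM and where 8 muscle markers summed to 158 CPM, the highest of the 9 libraries. The part of muscle tissue in that value was not tested. Rpl39l, known from testis, had 0 to 4 counts per library. Rpl10l, also of testis, had 0 counts in every library, which allows up to 0.102 to 0.153 CPM at 3 counts per library, for counting error only.

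The 81 tested members spanned a 447-fold range in level per length, the CPM per kilobase of exon scaled to the same total over all genes in each library. Rplp1 was highest, at 1405 ± 146 in icKO and 1278 ± 168 in control (SD, n = 5 and 4), above Rps15 with 894 ± 86.8 and 800 ± 109 and Rpl4 with 713 ± 39.1 and 668 ± 37.6. Lowest among tested members were Rpl23a with 2.63 ± 0.348 in icKO and 3.90 ± 1.10 in control, Rpl24 with 3.41 ± 0.592 and 2.58 ± 0.771, and Rpl5 with 2.90 ± 0.497 and 3.15 ± 0.370. For each neighbouring pair of these lowest 3, the means ± SD overlapped in both groups. Scaled by the principal transcript instead, Rplp1 stayed first at 940.1 over all 9 libraries, but the order below it changed. Rps15, at 749, had rank 3 and Rpl4, at 630.2, rank 5 among the members, with Rps21 between them at 723.1. Lowest among tested members were then Rpl24 at 3.22, Rpl23a at 3.37 and Rpl36al at 3.92, with Rpl5 above them at 4.02. Ribosomal protein mRNAs are short, with a median principal transcript of 886 bases, against 3048.5 bases over tested protein-coding genes.

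This range went with sequence shared between genes. Among the 77 core members, the share of a transcript's 50-base windows found in transcripts of other genes had a median of 51.7%, with 3.0% for Rps3 and 98.6% for Rps27. The 37 members with under 50% shared had a median level per principal length of 150 (the mean of 9 libraries), and the 40 with at least 50% had 42.8. The 18 with at least 80% shared had 17.8. Over the 77 genes Spearman's rho between level and share was -0.529, a description of genes that share libraries. How reads that match several genes were counted is not stated in the sources used here, so the order of levels is uncertain for members with much shared sequence, and its cause was not tested. The median log2 fold change was 0.16 below 50% (36 of 37 above 0), 0.15 at or over 50% (33 of 40) and 0.13 at or over 80% (12 of 18). Values ran from -0.02 to 0.32 below 50% and from -0.54 to 0.40 at or over 80%, and the difference was not tested. The 291 genes named as ribosomal protein pseudogenes summed to 19.1 to 24.6 CPM in icKO libraries and 15.1 to 33.5 CPM in control libraries.

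**Figure D4:**
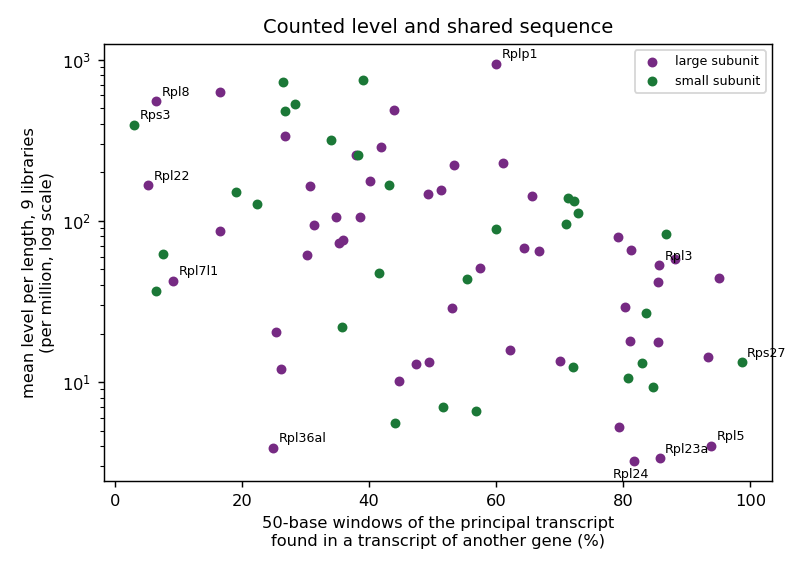
Mean level per principal transcript length over 9 libraries (vertical axis, log scale) against the share of 50-base windows found in transcripts of other genes (horizontal axis, percent), for large and small subunit genes. Rps3 (3.0%) lies high at the left and Rps27 (98.6%), Rpl5 (93.8%) and Rpl23a (85.7%) low at the right.

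Members with more counts had the narrower intervals. All 27 members averaging at least 50 CPM lay above 0, with a median log2 fold change of 0.17, against 20 of 28 members under 10 CPM, with a median of 0.11. Rps3, which has few shared windows, had 301.5, 294, 284.9, 369.6 and 304 CPM in icKO libraries, against 240.4, 323, 259 and 300.4 CPM in control libraries. Control 2 lay above 4 of the icKO libraries and the log2 fold change was 0.15 (interval -0.06 to 0.36).

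Ribosomal proteins with other symbols were set beside the members. Rack1, a small subunit scaffold for kinases, had 223, 218, 218.5, 269.6 and 223 CPM in icKO libraries, against 189, 226, 208 and 221 CPM in control libraries, with a log2 fold change of 0.13 (interval -0.04 to 0.29). Fau, which encodes eS30 fused to a ubiquitin-like protein, had 0.11 (interval -0.19 to 0.41). The member Rps27a, a ubiquitin fusion, had 0.17 (interval -0.18 to 0.52), and Rps6, the target of the S6 kinases, -0.04 (interval -0.35 to 0.27).

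Other genes of translation were nearer to 0 as lists, and 0 genes of these lists were called by edgeR's quasi-likelihood test. Of 16 elongation factors and other TOP genes, 12 lay above 0, with a median log2 fold change of 0.03 and 0 at an unadjusted p of 0.05. Among them were Npm1, a nucleolar chaperone, with 0.14, Eif3e with 0.12 and Eef1a1, the main elongation factor 1A of dividing cells, with 0.12. Of 36 further initiation, elongation and release factors, 16 lay above 0, with a median of -0.0034, 1 of them higher at that p. That gene was Eif1a, with 0.16, and Eif3m had 0.15 and Eif4h -0.13. Of 41 ribosome biogenesis genes, 23 lay above 0, with a median of 0.01 and 0 at that p. Nmd3, an export adaptor of the large subunit, had 0.15, Wdr12, a large subunit biogenesis factor, -0.09 and Bysl, a small subunit one, -0.14.

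Of 9 tested chaperones and importers of ribosomal proteins, 2 lay above 0, with a median of -0.02, and Grwd1, which escorts Rpl3, was the 1 lower at an unadjusted p of 0.05, with -0.33 (adjusted p 0.252 in edgeR's quasi-likelihood fit). The importer Ipo9 had -0.05 and Aamp -0.04. Of 19 regulators, 10 lay above 0, with a median of 7.04e-06. Mycn, a driver of ribosome synthesis, had 0.33 and was the 1 higher at that p, Larp1 had -0.21 and Gabpa, a subunit of GABP, 0.13. Of 77 mitochondrial ribosomal protein genes, 52 lay above 0, with a median of 0.03, and Mrpl3 had -0.18 (adjusted p 0.167 in edgeR's quasi-likelihood fit), Mrpl30 0.17 and Mrps26 -0.09. These medians stand beside 0.13 and 0.16 for the large and small cytosolic subunits, and the differences between lists were not tested.

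**Figure D5:**
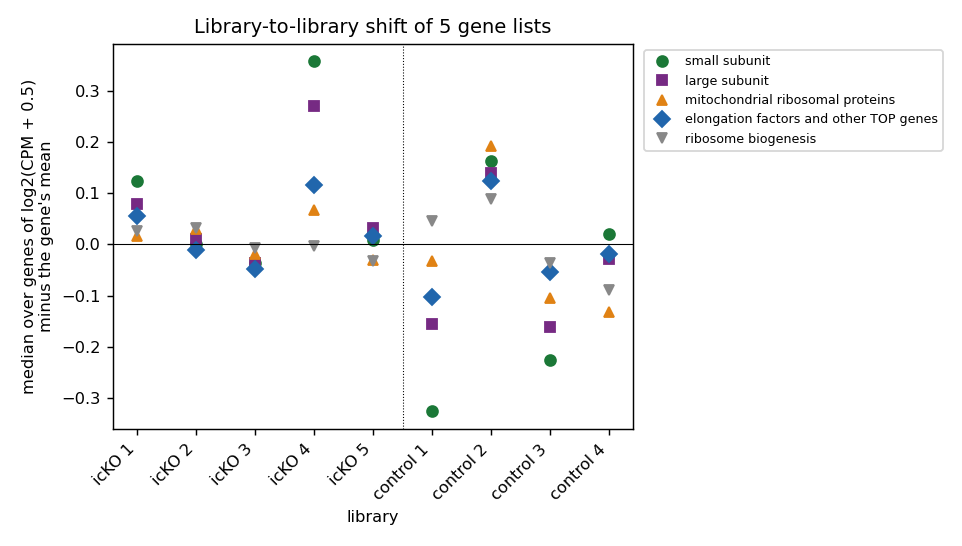
Median over the genes of each list of log2(CPM + 0.5) minus the gene's own mean (vertical axis) in each library (horizontal axis, icKO left of control). The small subunit spans -0.33 in control 1 to 0.36 in icKO 4 and the large subunit -0.16 in control 3 to 0.27 in icKO 4, and control 2 has the highest point of the mitochondrial ribosomal proteins, at 0.19.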

How the data were processed

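Each library came as a deposited table of raw gene counts. The submitters' processing notes list featureCounts 1.5.0-p1, STAR 2.5.2a, bcl2fastq 2.20.0.422 and the mm10 genome. Annotation, strand setting and handling of reads matching several genes were not given in the sources used here. Symbols and lengths came from GENCODE on the same build, which matched all 55536 identifiers.

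Genes were kept with filterByExpr (minimum count 10, minimum total 15), which left 17258, scaled with TMM factors and compared with edgeR 4.0.16's quasi-likelihood test in R 4.3.3, adjusted over all tested genes by Benjamini-Hochberg. Log2 fold changes are icKO over control, with 95% intervals from the fit. The biological coefficient of variation was 0.115. DESeq2 1.42.0 was an alternative. Replicates differed beyond sampling noise (chi-square per degree of freedom 5.53 to 20.99).

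Members and gene lists were chosen with earlier results of these data known. Named genes were the 4 highest and 4 lowest fold changes outside the paralogs, the 3 highest and 3 lowest levels per length, all tested paralogs, Rpsa, Rplp0, Rplp1, Rplp2, Rps4x, Fau, Rack1, Prdm12 and the 3 smallest p in each companion list. Some genes that meet this rule are not reported here. Others illustrate a role or were chosen after their values were seen. Alternatives were other scalings and count filters, robust dispersion, a block, leaving out libraries and the classes of Y-linked counts.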

Additional observations from a re-analysis of the deposited data

Results flagged for a closer look

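Over 88 groups of values, 12 held a library far from the others of its group by Dixon's test, which by chance picks about 1 in 20 groups. The groups share libraries and the members move together. In icKO 4, Rpl36al had 2.43 CPM (the other icKO libraries 1.74 to 1.86), Rplp0 had 180 CPM (152 to 157) and Rack1 had 270 CPM (218 to 223). The ratio of large to small subunit sums was lowest there, at 1.08 (the others 1.15 to 1.17). In control 2, Rps28 had 9.02 CPM (the other controls 5.57 to 6.12), Rps27 had 2.33 CPM (1.83 to 1.9), Rpl4 had 413 CPM (346 to 357), Npm1 had 82.3 CPM (67.3 to 69.5) and Eif3m had 63.8 CPM (50.1 to 51.4). In control 3, Rps10 had 1.42 CPM (the other controls 2.78 to 2.82) and Wdr12, a biogenesis factor of the large subunit, had 38.3 CPM (42.3 to 42.4). In icKO 2, Ipo9, an importer of ribosomal proteins, had 113 CPM (the other icKO libraries 100 to 101).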

How the results depend on the processing

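Members called were 0 under every alternative run in edgeR and in DESeq2, with 0 to 42 members higher and 0 or 1 lower at an unadjusted p of 0.05. Without 1 library at a time, the median log2 fold change lay between 0.08 and 0.21 for the large and between 0.09 and 0.25 for the small subunit; without both control 1 and icKO 4 it was 0.04 and 0.02, and the summed ratios were 1.02 and 1.02. Of 859 values of 40 named genes and Prdm12 under alternatives, 837 kept their sign and 22 turned it without being called. Over all genes, the 82 higher and 65 lower calls became 172 and 221 with no count filter, 194 and 227 with DESeq2, 53 and 35 without control 1 and icKO 4, 0 and 3 within the class of high Y-linked counts (786 and 715 at an unadjusted p of 0.05), and 11 and 9 within the class of low counts. Leaving out 1 library gave 45 to 85 higher and 33 to 90 lower. A replicate block on the numbers gave 28 higher and 20 lower calls, 0 of members. Same-numbered libraries correlated at 0.0998, -0.199, -0.0187 and 0.182, and no icKO library correlated best with its own number. The correlations thus showed no pairing by number, but so few pairs cannot exclude one. Members with few counts, such as Rpl23a and Rpl24, have wide intervals.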
